A study of Mus musculus with 6 samples.

Results

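The 9 genes described here mark the B-lymphocyte lineage: Cd79a, Cd79b, Pax5, Ebf1, Ms4a1, Pou2af1, Vpreb3, Igll1 and Ly6d. They are 9 of the 55450 genes in the count table, matched by symbol to the GENCODE vM21 annotation. They were selected on their counts and on the log2 folds between the groups in these same libraries, so that difference is given below as a description, with no test.

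The study raised the level of the microRNA miR-125a in blood-forming stem cells of mice (the LSK/SLAM fraction) and gave these cells to recipients that had received a lethal dose of irradiation. At 12 weeks, marrow cells gated as lineage-Sca+ were collected, 2000 for each library, and their RNA was sequenced with a low-input kit. All libraries carry the strain label C57BL6/SJL, and the groups differ by endogenous miR-125a expression (3 labelled libraries) or miR-125a overexpression (3 labelled libraries). Counts were used for 4 of these, n = 2 in each group: replicates 1 and 3 with endogenous expression, and replicates 2 and 3 with overexpression. The remaining 2 were not analysed here. The labels give neither the vector or promoter that drove miR-125a nor the number of recipients behind a library. The spread between replicates below is thus the spread between libraries, which may be technical.

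B cells arise from lymphoid progenitors in the marrow. Tcf3 and Ebf1 open the program, Pax5 commits the cells to it, and the products of Igll1 and Vpreb1 form a surrogate light chain that is displayed with the immunoglobulin heavy chain and the signalling pair Cd79a and Cd79b as the pre-B-cell receptor. Ms4a1 (CD20) and Pou2af1, a coactivator of octamer-binding factors, belong to later stages. Ly6d encodes a GPI-anchored surface protein that marks lymphoid progenitors turning to the B lineage and is also found on plasmacytoid dendritic cells.

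Complementary matches to the seed of miR-125a-5p were looked for in 3' UTRs, taking for each gene the longest one annotated, since they are the sequence by which a miRNA recognises a transcript. The mature miRNA is shown first with its seed (bases 2 to 8) in capitals, from RefSeq on GRCm38.p6. It is followed by the 3 matches found among the members, each with the match in capitals, from the GENCODE vM21 transcripts on GRCm38, the assembly of the mm10 build.
mmu-miR-125a-5p: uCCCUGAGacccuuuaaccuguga
Pou2af1: ccaagtctgcagCTCAGGGttttcctttgg
Igll1: cctccctgaagcCTCAGGGgcctggatctg
Pax5: ttggagaagatgTCAGGGAagcaagaggtg

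Pou2af1 and Igll1 each held 1 match to the whole seed (CTCAGGG). The Pou2af1 match lay at base 283 of a 3' UTR of 1699 bases (chr9:51238663-51238669, plus strand), and the Igll1 match at base 21 of 144 (chr16:16860788-16860794, minus strand). Pax5 held 1 shorter match, to seed bases 2 to 7 followed by adenine, at base 3604 of 6749 (chr4:44527896-44527902, minus strand). No match of either kind was found in the 3' UTRs searched for Cd79a, Cd79b, Ebf1, Ms4a1, Vpreb3 and Ly6d, of which the Ly6d one has 300 bases. A whole-seed match is common: 13.1% of 21039 protein-coding genes with a 3' UTR held one, as did 17.6% of the 8711 such genes that passed the count filter and 2 of the 9 members (22.2%). The shorter match was held by 8.88% of the 21039 genes, by 12.8% of the 8711 that passed the filter and by 1 member (11.1%). A match describes the sequence and does not show that the transcript was bound.

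RefSeq promoter sequences on GRCm38.p6 were matched for 6 members (7 entries, Ebf1 having a pair) and not for Cd79b, Ms4a1 and Ly6d. The 250 bases before each start were searched on both strands for 10 motifs: the octamer ATGCAAAT, on which Pou2af1 acts through its partners, and its core TGCAAAT; the E-boxes CAGGTG, bound by Tcf3, and CAGCTG; the Ebf1 site core CCCNNGGG, alone and with its flanking thymine and adenine; GAGGAA of ETS factors, TGGGAA of Ikaros factors, TGTGGT of Runx factors and the TATA box TATAAA. The octamer contains its core, and the flanked core contains the plain one. Both windows printed were picked after the matches were seen, because they place a match before a receptor subunit gene and a pre-B gene, and show the octamer (as its reverse complement) and the E-box CAGGTG in capitals.
Vpreb3: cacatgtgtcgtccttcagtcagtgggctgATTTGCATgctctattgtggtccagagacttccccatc
Cd79a: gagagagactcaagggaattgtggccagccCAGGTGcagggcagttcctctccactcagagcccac

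The octamer before the RefSeq start of Vpreb3 (window chr10:75948225-75948292, plus strand) was the only one in the 7 member entries, and 1.6% of all 32851 promoters held one. That window lies inside the GENCODE span of the gene (75943057 to 75949657), which starts further upstream. CAGGTG was present before Cd79a (window chr7:24897313-24897378, plus strand) and Igll1, against 17.2% of all promoters. Of the rest, TGCAAAT was found before Pou2af1 and Vpreb3 (3.56% of all), CAGCTG before Igll1 (13%), CCCNNGGG before Igll1 (11.8%), GAGGAA before Cd79a and Ebf1 (23.3%), TGGGAA before Ebf1 (21.6%) and TGTGGT before Vpreb3, Ebf1 and Igll1 (14%). The flanked Ebf1 core (0.779%) and TATAAA (12.4%) were found in 0 member entries. These matches describe letters only.

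Total counts were between 654126 and 737431 per library, and 10808 genes passed the count filter of edgeR. Overexpressed replicate 3 stands apart: mitochondrially encoded genes took 0.558% of its counts against 4.14% to 6.29% in the other 3, so folds without it are given for each member tested. Low counts occur in genes with no known role in marrow. Among 1479 odorant, pheromone and trace-amine receptor genes, the density that 95% do not exceed was 8.86, 10.4, 6.68 and 8.99 counts per kb of exon in endogenous 1, endogenous 3, overexpressed 2 and overexpressed 3, and 8.30 for the mean over the 4 libraries. The transcript of Ly6a, which encodes the Sca-1 used in the sort, had 1, 0, 1 and 1 counts, so the gate is not visible in these counts. The reason was not tested. The stem cell gene Procr had 1 count in each library, but Mecom of the same list had 28, 41, 19 and 31. The mature T cell gene Cd3e had 1, 3, 1 and 5, but Cd3d had 8, 25, 10 and 17. Procr and Cd3e were not picked by the naming rule given below, and they do not speak for their lists.

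Throughout, counts per library are given in the order endogenous 1, endogenous 3, overexpressed 2, overexpressed 3, and CPM is counts scaled to 1e+06 of effective library size. Of the 9 members, 6 passed the count filter: Cd79a, Pax5, Ebf1, Ms4a1, Pou2af1 and Ly6d. Cd79b, Vpreb3 and Igll1 did not. A member passed only with enough counts in at least a pair of libraries, so the folds below do not speak for the others. In bulk RNA, fewer B-lineage cells among those sorted and less of a transcript per cell cannot be told apart.

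**Figure D1:**
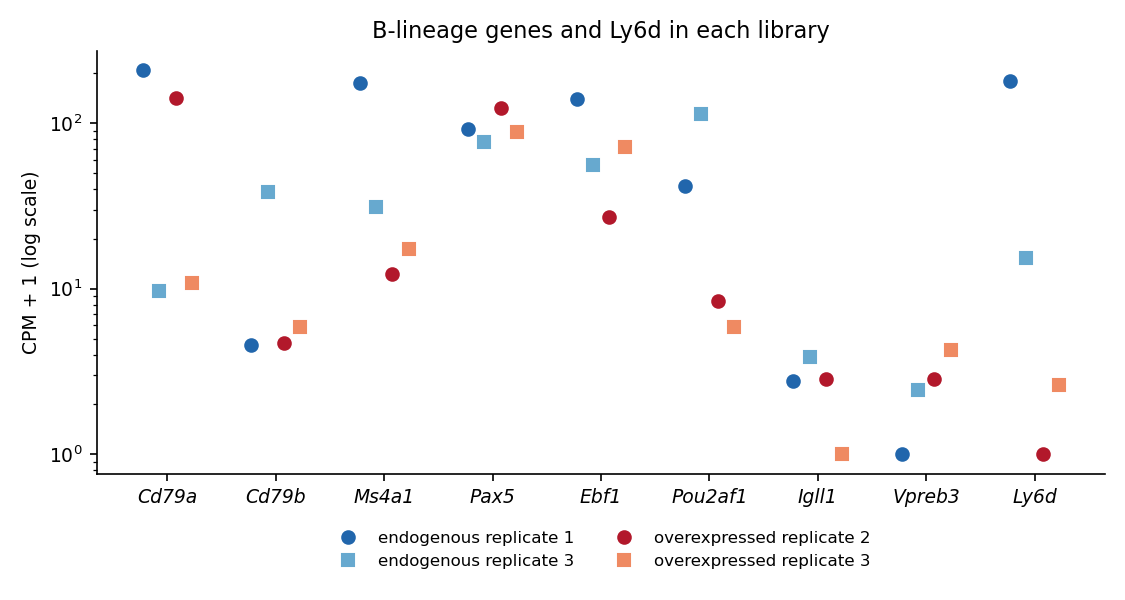
CPM + 1 of each member on a log axis, 1 point per library (circles and squares are replicates, blue endogenous, red overexpressed). The overexpressed libraries lie below both endogenous ones for Ms4a1, Pou2af1 and Ly6d, the Cd79a points split by library within each group, and the 4 Pax5 points lie together.

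Cd79a and Cd79b encode the Ig-alpha and Ig-beta chains, which pair to carry the signal of the B-cell receptor, yet their counts came from different libraries. Cd79a (chromosome 7, 24897381 to 24902197, 1457 bases of exon) had 117, 6, 75 and 6 counts. One library of each group was high and one low, so the groups overlapped. Its CPM was 109 ± 141 (SD, n = 2) in endogenous and 74.9 ± 92.0 (SD, n = 2) in overexpressed libraries. The log2 fold, overexpressed over endogenous, was -0.53 ± 1.58 (SE). It was 3.19 without endogenous 1 and -3.43 without overexpressed 2, and 0.36 without overexpressed 3, so its direction depended on the library left out. Cd79b (chromosome 11, 106311341 to 106314762) had 2, 26, 2 and 3 counts, of which 78.8% came from endogenous 3. In the libraries where Cd79a was high, endogenous 1 and overexpressed 2, Cd79b had 2 counts each.

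A pair of immunoglobulin genes picked after their values were seen had their highest counts in the same libraries as Cd79a. Ighm, the mu heavy chain, had 127, 19, 72 and 39 counts and the light-chain constant gene Iglc1 had 151, 0, 109 and 0.

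Ms4a1, the CD20 surface protein of maturing B cells, was lower in both overexpressed libraries. The gene (chromosome 19, 11249675 to 11266241) had 98, 21, 6 and 10 counts, or 175, 30.2, 11.2 and 16.4 CPM. Endogenous 1 held 72.6% of its counts, and the nearest libraries of the 2 groups were at 30.2 and 16.4 CPM. The log2 fold was -2.86 ± 0.94 (SE), -0.9985 without endogenous 1 and -3.17 without overexpressed 3. On the density scale Ms4a1 exceeded the receptor genes' 95% level only in endogenous 1, at 15.8 counts per kb.

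The transcription factors Pax5 and Ebf1 showed little or no separation. Pax5, which holds cells in the B lineage, lies on chromosome 4 (44524757 to 44710487) and had 51, 53, 66 and 53 counts. These are the most even values among the members, with a log2 fold of 0.33 ± 0.57 (SE), between 0.09 and 0.58 when any 1 library was left out. Spread over 8853 bases of exon, they came to between 5.76 and 7.46 counts per kb, which passed the receptor level only in overexpressed 2. Exons of Pax5 also overlap the transcripts Gm12462 (3, 2, 0 and 4 counts) and 5730488B01Rik (50, 20, 14 and 35 counts) on the opposite strand, and the use of strand in the counting is not given in the sources used here. Ebf1, the factor that opens chromatin at B-lineage genes, lies on chromosome 11 (44617317 to 45008091) and had 78, 38, 14 and 43 counts. Overexpressed 2 was lowest, but overexpressed 3 lay between the endogenous libraries in counts and in CPM (139, 54.7, 26.1 and 70.4). The log2 fold of Ebf1 was -0.99 ± 0.75 (SE), -0.06 without endogenous 1 and -1.87 without overexpressed 3. In counts per kb Ebf1 stayed under the receptor level in each library, at 7.995 or less.

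Pou2af1, the coactivator, was low in both overexpressed libraries. Whether the whole-seed match in its 3' UTR sequence shown above bears on its counts was not tested. The gene (chromosome 9, 51213708 to 51240080, 2549 bases of exon) had 23, 78, 4 and 3 counts, or 41.0, 112, 7.46 and 4.91 CPM. Both endogenous libraries were above both overexpressed ones, and endogenous 3 was the higher, unlike Ms4a1 and Ly6d. Mean CPM was 76.7 ± 50.4 (SD, n = 2) against 6.19 ± 1.80 (SD, n = 2). The log2 fold was -3.60 ± 0.72 (SE) and was between -4.04 and -2.71 when 1 library was left out, with -3.28 without overexpressed 3. Pou2af1 was above the receptor level in both endogenous libraries, at 9.02 and 30.6 counts per kb, and under it in both overexpressed ones, at 1.57 and 1.18.

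Igll1 and Vpreb3 were at the edge of detection. Igll1, the lambda5 part of the surrogate light chain and the other member with a whole-seed match, had 1, 2, 1 and 0 counts (chromosome 16, 16860671 to 16863985). Vpreb3, which binds heavy chains early in their synthesis, had 0, 1, 1 and 2 counts (chromosome 10, 75943057 to 75949657). A count of 0 allows up to 3 counts, or 5.35 CPM for Vpreb3 in endogenous 1 and 4.91 CPM for Igll1 in overexpressed 3, so no difference was detectable at this depth. Besides Igll1, the surrogate light chain genes Vpreb1 and Vpreb2, both named after their values were seen, were unlike each other. Vpreb1 passed the filter with 12, 49, 10 and 20 counts and lay above the receptor level at a mean of 19.0 counts per kb, and Vpreb2 had 2, 10, 1 and 0 counts and lay under it at 4.28.

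Ly6d had the widest separation among the 9 members. The gene (chromosome 15, 74762056 to 74763620, 744 bases of exon in 3 blocks) had 100, 10, 0 and 1 counts, or 178, 14.4, 0 and 1.64 CPM. Both endogenous libraries were above both overexpressed ones, and endogenous 1 held 90.1% of all its counts. Mean CPM was 96.3 ± 116 (SD, n = 2) against 0.819 ± 1.16 (SD, n = 2). The 0 in overexpressed 2 allows up to 3 counts there, or 5.60 CPM. With a single count in the overexpressed pair, no fold is well determined: scaled by library size, the ratio of endogenous to overexpressed counts was 100.4, with a 95% exact interval of 17.7 to 4003. The interval describes counting error only, is no test of a gene chosen on this contrast, and leaves out the spread between libraries. The fitted log2 fold of -6.48 ± 1.68 (SE) depends on the prior count used for the overexpressed pair. It was between -8.88 and -5.70 without endogenous 3, overexpressed 2 or overexpressed 3 in turn (-8.88 without the last), and without endogenous 1 the gene had too few counts to pass the filter. Ly6d was above the receptor level in both endogenous libraries (134 and 13.4 counts per kb).

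**Figure D2:**
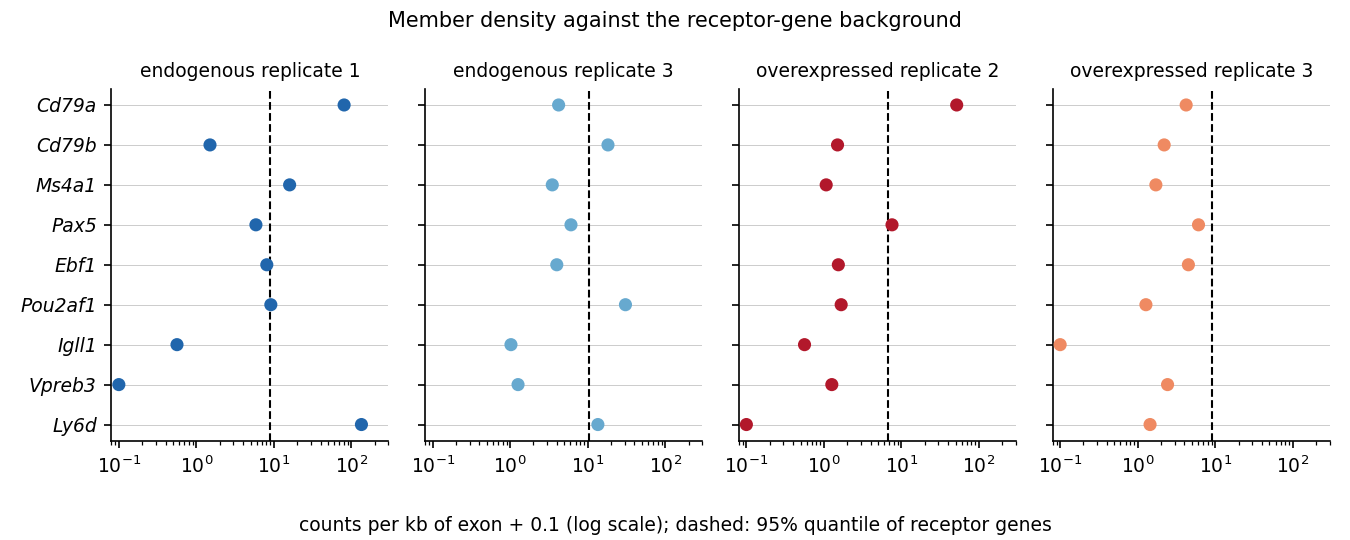
Counts per kb of exon + 0.1 on a log axis for each member, 1 panel per library, with the density that 95% of 1479 receptor genes do not exceed as a dashed line. In endogenous 1 there are 4 members right of the line, in endogenous 3 there are 3, in overexpressed 2 there are 2 (Cd79a and Pax5) and in overexpressed 3 none.

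Per length, the genes at the top changed from library to library. In endogenous 1 the members above the receptor level were Ly6d (134 counts per kb), Cd79a (80.3), Ms4a1 (15.8) and Pou2af1 (9.02). In endogenous 3 they were Pou2af1 (30.6), Cd79b (18.2) and Ly6d (13.4), and in overexpressed 2 they were Cd79a (51.5) and Pax5 (7.46). No member passed it in overexpressed 3, where Pax5 was highest at 5.99. Over the mean of the 4 libraries, Ly6d (37.3), Cd79a (35.0) and Pou2af1 (10.6) were above the level of 8.30, as were 4579 of all 55450 genes. The members were chosen on their counts, so nothing is read from this. The nearest members below the level were Pax5 (6.30), Cd79b (5.77) and Ms4a1 (5.46). The ranges over libraries of Ly6d, Cd79a and Pou2af1 overlap, so their order by mean is not separated from the spread. Igll1, at 0.924 counts per kb or less, lay under the lowest Pax5 library.

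The share of a member's counts in its highest library ranged from 29.6% for Pax5 and 45.1% for Ebf1 to 90.1% for Ly6d. Its median over the 6 tested members was 64.8%, against 35.7% over all 10808 tested genes, of which 90% had 53.6% or less. The members were chosen on counts in these libraries, so nothing is read from this. Within the endogenous group the 2 libraries differed by 4.15 on the log2 scale for Cd79a, 3.36 for Ly6d, 2.41 for Ms4a1, 1.38 for Pou2af1, 1.29 for Ebf1 and 0.24 for Pax5. The median over all tested genes was 0.48, and 5 of the 6 members exceeded it. Within the overexpressed group the gap was 3.45 for Cd79a, 1.32 for Ebf1, 0.58 for Ly6d, 0.49 for Pax5, 0.44 for Ms4a1 and 0.39 for Pou2af1. The median of the 6 there was 0.53, as over all tested genes, and 3 of the 6 exceeded that of all genes. Of all 9 members, endogenous 1 was the highest library by CPM for 4, endogenous 3 for 3, and each overexpressed library for 1.

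Summed over the 9 members, CPM was 838, 338, 315 and 198. The 2 endogenous libraries differed more from each other than endogenous 3 did from overexpressed 2. Without Ly6d the sums were 659, 324, 315 and 197, in the same order, and without Cd79a they were 629, 330, 175 and 188.

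Among the 6 tested members, 5 had a lower and 1 a higher log2 fold with overexpression, where 50.4% of all tested genes were lower. Their median was -1.93 and that of all tested genes -0.01. Without endogenous 1 the median of the 6 members then tested, with Cd79b in place of Ly6d, was -0.53. In 3 of the 6 (Ms4a1, Pou2af1 and Ly6d) both overexpressed libraries were below both endogenous ones in CPM, as they were in 18.0% of tested genes. The members were chosen with this contrast known, so nothing is read from these shares. Across all 10808 genes, 0 (0%) had an adjusted p under 0.05 by edgeR's quasi-likelihood F test, and 566 (5.24%) had an unadjusted p under 0.05. On the same genes a likelihood ratio test in edgeR called 84 and DESeq2 109.

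**Figure D3:**
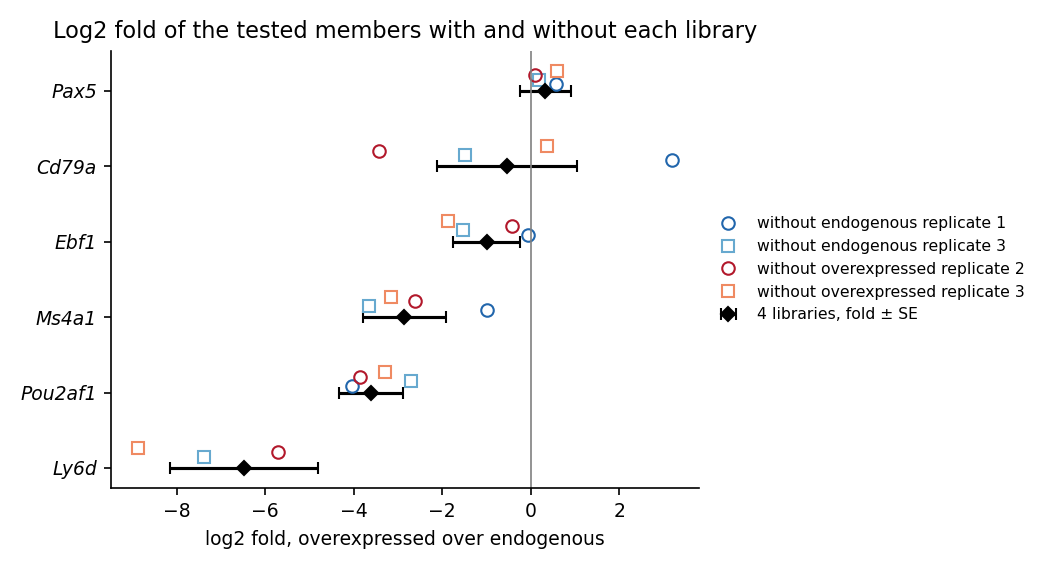
Log2 fold of the 6 tested members, overexpressed over endogenous, with all 4 libraries (black diamonds, bars are SE) and without each library in turn (open symbols). Cd79a crosses 0 (3.19 without endogenous 1), Ebf1 reaches -0.06, and Pou2af1 stays between -4.04 and -2.71.

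In the authors' deposited table of 17039 genes, 6 members are listed, the same 6 as passed the filter here. Folds in that table have the opposite sign to the folds above in 98.9% of shared genes, so a positive value there means more counts in endogenous libraries. The authors' deposited table gives a log2 fold of 6.50 for Ly6d, which ranks 4 by p, with an FDR of 3.90e-05. It gives 3.57 for Pou2af1 (rank 96, FDR 0.00429) and 2.87 for Ms4a1 (rank 375, FDR 0.0427). Its values are 0.56 for Cd79a, 0.99 for Ebf1 and -0.34 for Pax5, each with an FDR of 0.9997. An FDR under 0.05 is given there for 404 genes, of which 249 (1.46% of the table) have that sign. Among these 249 are 3 of the 6 members listed. The deposited values include a likelihood ratio, whereas the test above was a quasi-likelihood F test. The members were chosen with this contrast known, and the table rests on the same counts.

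The rest of the B-cell program was described by 64 genes in 5 lists. Of these 43 were tested, 21 with a lower and 22 with a higher fold, and the median was 0.11 against -0.01 over all genes tested. It was -0.37 without overexpressed 2 and -0.13 without the count filter, so its sign depended on these choices. By the quasi-likelihood test 0 of the 43 had an adjusted p under 0.05, 3 had an unadjusted p under 0.05, and DESeq2 and the likelihood ratio test also called 0. By mean counts per kb, 17 of the 64 were above the receptor level, as were 4579 of all 55450 genes. The lists were chosen with earlier results of these data known, so nothing is read from this.

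Receptor signalling genes were tested in 14 of 16 cases, 4 lower and 10 higher, with a median of 0.50. Lyn, a kinase that acts next to Cd79a and Cd79b, had 300, 21, 15 and 9 counts (log2 fold -3.71 ± 1.40 SE, adjusted p = 0.845 by edgeR). Its counts sat mostly in endogenous 1, where Ly6d and Ms4a1 were also highest. Cd72, an inhibitory coreceptor, had 7, 5, 12 and 85 (3.04 ± 0.96, adjusted p = 0.845 by edgeR), and its high library was overexpressed 3.

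Transcription factors of the lineage were tested in 12 of 16 cases, 6 lower and 6 higher, with a median of -0.06. Foxo1, which acts with Ebf1 in early B cells, had 25, 31, 12 and 10 counts (-1.20 ± 0.41 SE, adjusted p = 0.845 by edgeR), low in both overexpressed libraries but at a mean of 2.25 counts per kb, under the receptor level. Pou2f2 encodes an octamer-binding partner of Pou2af1. It had 55, 58, 381 and 89 counts (2.24 ± 0.96 SE, adjusted p = 0.845 by edgeR). Both overexpressed libraries were above both endogenous ones, but most of its counts were in overexpressed 2 (98.0, 83.5, 711 and 146 CPM). Neither Foxo1 nor Pou2f2 passed the test.

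Early lymphoid and recombination genes had a median of 0.01 over 8 of 14 tested, 4 lower and 4 higher. The cytokine receptor Flt3 had 56, 37, 242 and 33 counts (1.72 ± 1.09 SE), and the scaffold gene Akap12 had 7, 14, 22 and 14 (0.94 ± 0.50 SE). Surface genes of mature B cells had a median of -0.24 over 6 of 12 tested, 5 lower and 1 higher: Cd52 had 64, 13, 0 and 15 counts (-2.36 ± 1.33 SE) and the IgE receptor Fcer2a had 11, 19, 25 and 20 (0.74 ± 0.43 SE). Plasma cell genes had a median of -0.22 over 3 of 6 tested, 2 lower and 1 higher. Among them Xbp1, the secretory factor, had 27, 27, 16 and 14 counts (-0.72 ± 0.42 SE), and Jchain, which joins IgM and IgA units, had 81, 90, 973 and 10 (2.74 ± 1.77 SE). None of these 6 named genes passed the edgeR test, and their adjusted p ran from 0.845 to 0.864.

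**Figure D4:**
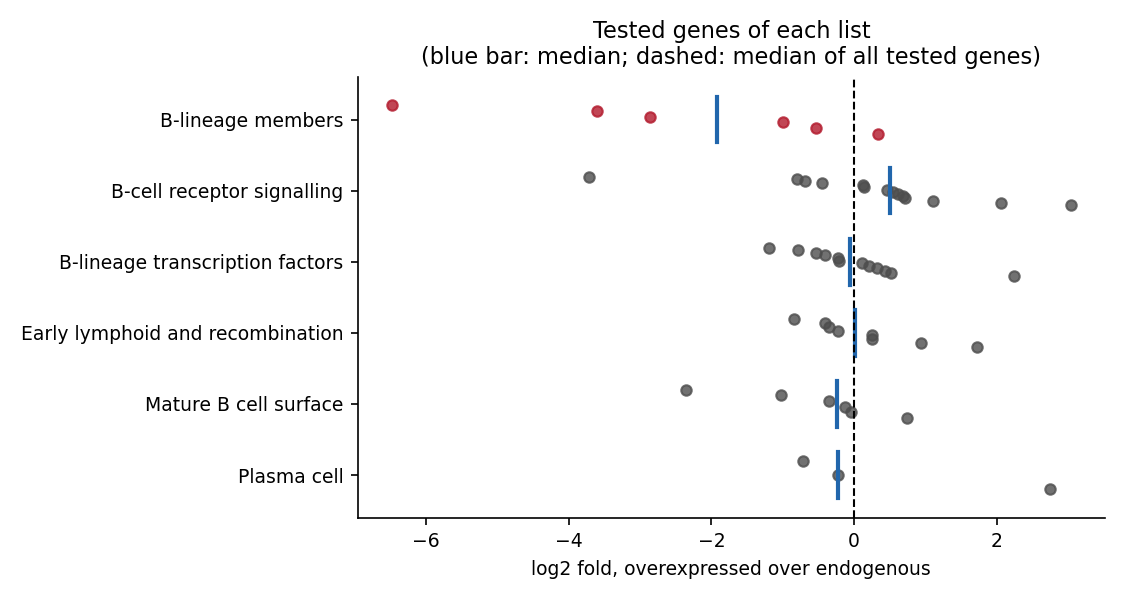
Log2 fold of the tested members (red) and of the tested genes of 5 other B-lineage lists (grey), 1 point per gene, with the median of each list as a blue bar and that of all tested genes as a dashed line. The member median is -1.93 (-0.53 without endogenous 1), for genes chosen on this fold, and those of the other lists lie between -0.24 and 0.50.

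Ly6d sits among related genes on chromosome 15, most of which had few counts. Of 14 family members listed, 13 were matched and 3 tested. Ly6e, the broadly expressed relative, had 61, 11, 9 and 12 counts (log2 fold -1.74 ± 0.91 SE, adjusted p = 0.845 by edgeR), highest in endogenous 1 as Ly6d was. Ly6h had 11, 14, 11 and 16 counts (0.23 ± 0.41 SE). Ly6c2, a monocyte and lymphocyte marker named after its values were seen, was high in endogenous 3 and overexpressed 2, with 12, 107, 116 and 2 counts. Of the listed family genes, those nearest to Ly6d on each side, Lynx1 (2, 1, 1 and 0 counts) and Ly6k (2, 0, 2 and 3), had 3 counts or fewer in each library.

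**Figure D5:**
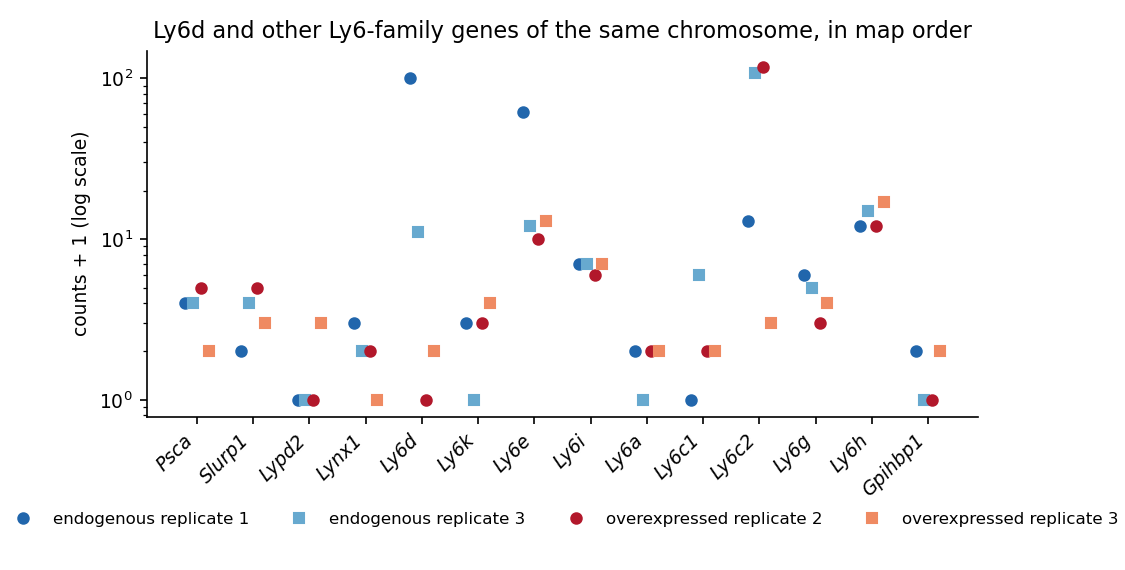
Counts + 1 on a log axis of Ly6d and 13 other Ly6-family genes of chromosome 15 in map order, 1 point per library (symbols as labelled). Ly6d reaches 100 counts in endogenous 1 and 0 or 1 in the overexpressed libraries, and most neighbours have few counts in every library.

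Markers of other cells moved between libraries as well, beside the members. Summed CPM of 10 plasmacytoid dendritic cell genes, a type that also carries Ly6d, was 242, 1584, 722 and 247. Of the 8 tested, 2 were lower and 6 higher by value (median log2 fold 0.76). Its defining gene Siglech had 20, 860, 50 and 11 counts, highest in endogenous 3 and not in endogenous 1. Siglech alone made up 1238 of the 1584 CPM in endogenous 3, and Pacsin1 had 10, 14, 30 and 15 counts. Erythroid genes summed to 702, 3577, 674 and 267 CPM, with 6 of 6 tested members lower by value (median log2 fold -2.00). Their Tfrc, with 299, 655, 44 and 36 counts, and Hba-a1, with 9, 182, 12 and 0, had the smallest p. Neutrophil genes, 7 of 8 tested higher by value (median 0.88), summed to 8634, 9155, 21583 and 13057 CPM, led by Ltf with 4538, 3735, 8490 and 7413 counts, while Mpo had 8, 20, 42 and 8. T and NK cell genes summed to 130, 194, 517 and 147 CPM (3 of 12 tested, median 0.00), with Nkg7 at 19, 25, 208 and 15 counts and Cd3d at 8, 25, 10 and 17. Stem and progenitor genes summed to 422, 423, 261 and 480 CPM (4 of 10 tested, median -0.02), with Cd34 at 32, 26, 58 and 38 counts and Mecom at 28, 41, 19 and 31. No gene of these lists was at 0 in all 4 libraries, and 0 passed the edgeR test, with 1 at an unadjusted p under 0.05 (Tfrc). The part of these cells in the member values was not tested.

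The tested genes whose log2 CPM pattern over the 4 libraries was most like that of Ly6d were Psmd8, a proteasome subunit (443, 44, 8 and 10 counts), Iars2, a mitochondrial tRNA synthetase (679, 68, 12 and 13), the mitotic kinase Cdk1 (327, 27, 4 and 4), the protease Ctse (883, 67, 10 and 30) and Shoc2 (281, 47, 3 and 4). Likeness was measured as the root-mean-square distance between log2 CPM centred on each gene, which was 0.21 to 0.36 for these 5 and 2.29 for the median tested gene. For Pou2af1 they were Pnn (18, 52, 4 and 2), Tfrc (299, 655, 44 and 36), the peroxidase Prdx1 (31, 66, 5 and 5), the respiratory subunit Ndufc1 (11, 26, 1 and 1) and Ghitm (62, 295, 10 and 10), at 0.20 to 0.32 against a median of 1.59. These distances rest on 4 libraries, and none of the 10 is a B-lineage gene of the lists used here.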

How the data were processed

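RNA counts of 4 libraries were analysed, each matched to its sample through the number that heads its column and stands in the labels. The counts deposited are whole numbers per gene with no scaling. STAR, FastQC 0.11.8, edgeR 3.24.3 and mm10 are listed, with no roles, per the submitters' processing notes. How reads were counted, with which annotation and strand setting, is not given in the sources used here. The authors also deposited log2 fold changes and mean log2 CPM, a likelihood ratio and a signed score, and p-values with FDR, per the file headers. Those were used as deposited.

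All 55450 gene identifiers matched GENCODE vM21. Counts were fitted with edgeR 4.0.16 in R 4.3.3 (filterByExpr, TMM factors, quasi-likelihood F test with the dispersions of earlier edgeR versions, Benjamini-Hochberg adjustment, threshold 0.05), over all 10808 genes passing the filter. The SE of a log2 fold was taken as its size divided by the root of its F statistic. Log2 CPM used a prior count of 2. The exact 95% interval of a count ratio was conditional binomial (scipy 1.17.1). The fits were also run on simulated counts with the same dispersion for every gene and with large folds only. The spread in these libraries varies by gene, so nothing is read from that run. DESeq2 1.42.0, a likelihood ratio test, RLE size factors, no count filter, edgeR 4 dispersions and leaving out each library were alternatives. The 5 lists of other B-lineage genes, and those of Ly6 family, plasmacytoid dendritic, T and NK, neutrophil, erythroid and stem cell genes, were described by counts and medians. Named genes were all members, the 2 tested genes of smallest p in each list, and the 5 nearest patterns to Ly6d and Pou2af1. The members and lists were chosen with earlier results of these data known. So was the use of receptor genes as a background. That set was first run with pseudogenes included (1754 genes) and then narrowed to the 1479 protein-coding ones after the result had been seen. The share of counts in the highest library, the gap between replicates, the count ratio and the choice of promoter windows, after a first scan for the same motifs that also took in the bases past the start, were also added after the member values had been seen. DESeq2 was run without independent filtering and without its Cook's distance cutoff.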

Additional observations from a re-analysis of the deposited data

How the results depend on the processing

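No paired analysis was possible because the endogenous and overexpressed libraries with counts share only 1 replicate number. The count of genes called was 0 as reported, 84 by the likelihood ratio test, 109 by DESeq2 and 822 with no count filter, and was 0 in each fit without 1 library (0 to 0). Without the count filter 5 of the 64 other B-lineage genes were called, beside 822 of all 46089 genes then tested. They were Cd24a, Cd52, Id3 and Lyn, lower, and Cd72, higher. Each of these has most of its counts in 1 library, for example Id3 with 0, 93, 1 and 0. The median log2 fold of the other B-lineage genes was 0.11 as reported, -0.13 without the filter, and between -0.37 and 0.21 without 1 library. The member median, recomputed under these settings after the data were seen, was -1.93 as reported, -1.22 without the filter, and between -2.61 and -0.53 without 1 library. Tested members with a lower fold numbered 5 of 6 as reported, 7 of 9 with no filter, and 4 to 6 without 1 library, where 6 or 7 members were tested. Members above the receptor level numbered 3 at the 95% level, 5 at the 90% level and 2 at the 99% level. With receptor pseudogenes included, a setting tried before the set was narrowed, they numbered 3, 5 and 2 at the same levels. RLE size factors and edgeR 4 dispersions moved none of these counts, and no scaling moved the median of all genes by over 0.1. Depth limits Cd79b, Vpreb3 and Igll1, which the filter removed.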
